A study of Mus musculus with 2 samples.

Results

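Matrix metalloproteinases (Mmp), ADAM and ADAMTS proteases, ADAMTS-like proteins (Adamtsl) and the tissue inhibitors of metalloproteinases (Timp) were described in mouse primary aortic vascular smooth muscle cells (VSMCs), which build and contract the medial layer of arteries. Members were the genes of the deposited table whose symbol begins with Mmp, Timp or Adam and a digit, or with Adamts; 31 of 11264 genes met this rule, namely 10 Mmp, 7 Adam, 8 Adamts, 3 Adamtsl and 3 Timp genes. The cells had been infected for 36 hours with an adenovirus that encodes Klf5 (Ad-Klf5, titled Ad-K5 in the labels) or with the GFP control adenovirus (Ad-GFP), according to the methods of the study. Each condition has 1 named RNA library. The strain label reads C57BL/7 in Ad-Klf5 and C57BL/6 in Ad-GFP, so strain and infection cannot be told apart, and their treatment field describes a lentivirus in a different cell line. With 1 library per condition there are no replicates, the values carry no error, and every comparison given here is a description of these libraries with no test.

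These families share a zinc-dependent protease fold, apart from the Adamtsl and Timp proteins. MMPs cut collagens, gelatins, fibronectin and other proteins of the extracellular matrix; ADAMs are mostly membrane proteins that release the outer parts of growth factors, receptors and adhesion proteins from the cell surface; ADAMTS proteases are secreted and cut proteoglycans such as aggrecan and versican, or trim procollagens. TIMPs bind the active site of many of these enzymes, though not of all, and block it. In the aorta, VSMCs make many of these proteases and inhibitors, and their balance is studied in aneurysm because it bears on the loss of elastin and collagen from the wall.

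Promoter sequences from RefSeq (GRCm38.p6, 250 bases before to 50 bases after each transcription start) were found for 21 of the 31 genes, in 24 windows. The stretches below lie directly upstream of the start, written 5′ to 3′ on the gene's strand, and are shown because they hold an AP-1 word or, in the inhibitor genes, a GC box. The starts are those of RefSeq; the gene models of the table begin further upstream for Timp2 and Timp3. In Mmp3, Mmp13 and Adam19 the capitals mark TGAGTCA or its reverse complement TGACTCA, the classical AP-1 element, known from collagenase and stromelysin promoters. In the Timp genes they mark GGGCGG or its reverse complement CCGCCC, the GC box that Sp and Krüppel-like factors can bind.
Mmp3 (chr9:7445722-7445821, plus strand): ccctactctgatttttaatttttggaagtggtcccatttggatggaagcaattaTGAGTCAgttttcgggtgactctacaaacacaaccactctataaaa
Mmp13 (chr9:7272414-7272513, plus strand): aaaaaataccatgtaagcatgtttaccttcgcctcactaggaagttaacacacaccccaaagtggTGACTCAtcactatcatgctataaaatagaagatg
Adam19 (chr11:46055834-46055983, plus strand): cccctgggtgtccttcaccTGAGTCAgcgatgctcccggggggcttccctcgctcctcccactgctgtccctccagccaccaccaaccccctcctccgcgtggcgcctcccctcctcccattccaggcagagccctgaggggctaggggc
Timp1 (chrX:20870066-20870165, plus strand): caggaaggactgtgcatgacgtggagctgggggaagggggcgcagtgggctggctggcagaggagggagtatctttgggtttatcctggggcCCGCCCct
Timp2 (chr11:118355412-118355511, minus strand): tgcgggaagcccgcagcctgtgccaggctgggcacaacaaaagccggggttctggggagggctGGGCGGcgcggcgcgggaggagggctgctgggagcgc
Timp3 (chr10:86300312-86300411, plus strand): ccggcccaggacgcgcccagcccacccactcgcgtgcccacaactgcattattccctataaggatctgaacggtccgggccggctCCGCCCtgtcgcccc

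TGAGTCA, searched on both strands, was in 3 of the 24 member windows, those of Mmp3, Mmp13 and Adam19. It was in 3.60% of the 10146 windows of genes measured here. GGGCGG, also on both strands, was in 19 of the 24 member windows, beside 65.8% of the windows of genes measured. Counted by gene, 19 of the 21 members had it in at least 1 window. The member windows include those of Mmp13 and Adamtsl3, which fell short of the level filter given below. The 2 members whose window holds no GGGCGG are Mmp3 and Mmp13, which have the AP-1 word at positions -46 and -35 from the start. CACCC, the short Krüppel-like factor word, searched on both strands, was in 22 of the 24 member windows, beside 63.4% of the windows of genes measured. Counted by gene, 19 of the 21 members had it. GGGCGG and CACCC overlapped in 1 of the 24 member windows, that of Mmp25, and TGAGTCA overlapped neither of them. A match is a description of the letters in the window and no binding site.

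Expression is given in FPKM, fragments scaled to transcript length and to the size of the library, so that levels of different genes can be set side by side. The log2 ratio is log2(FPKM + 1) in Ad-Klf5 minus log2(FPKM + 1) in Ad-GFP, and it understates the difference for genes at low FPKM. Genes averaging 1 FPKM or more over the libraries are called measured; they were 28 of the 31 members and 10158 of all genes. Adam11, Mmp13 and Adamtsl3 fell short of it. Mmp25, Mmp16 and Adamts7 passed it with less than 1 FPKM in Ad-Klf5, and so through their Ad-GFP value. Klf5 itself was at 2.62 FPKM in Ad-Klf5 and 1.76 FPKM in Ad-GFP, a log2 ratio of 0.39. Klf5 was thus higher in Ad-Klf5 by less than the 1.5-fold limit used for calls below. The FPKM values of all genes summed to 300045 in Ad-Klf5 and 278962 in Ad-GFP. Sequencing depth cannot be read from FPKM, and no counting error is given.

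**Figure D1:**
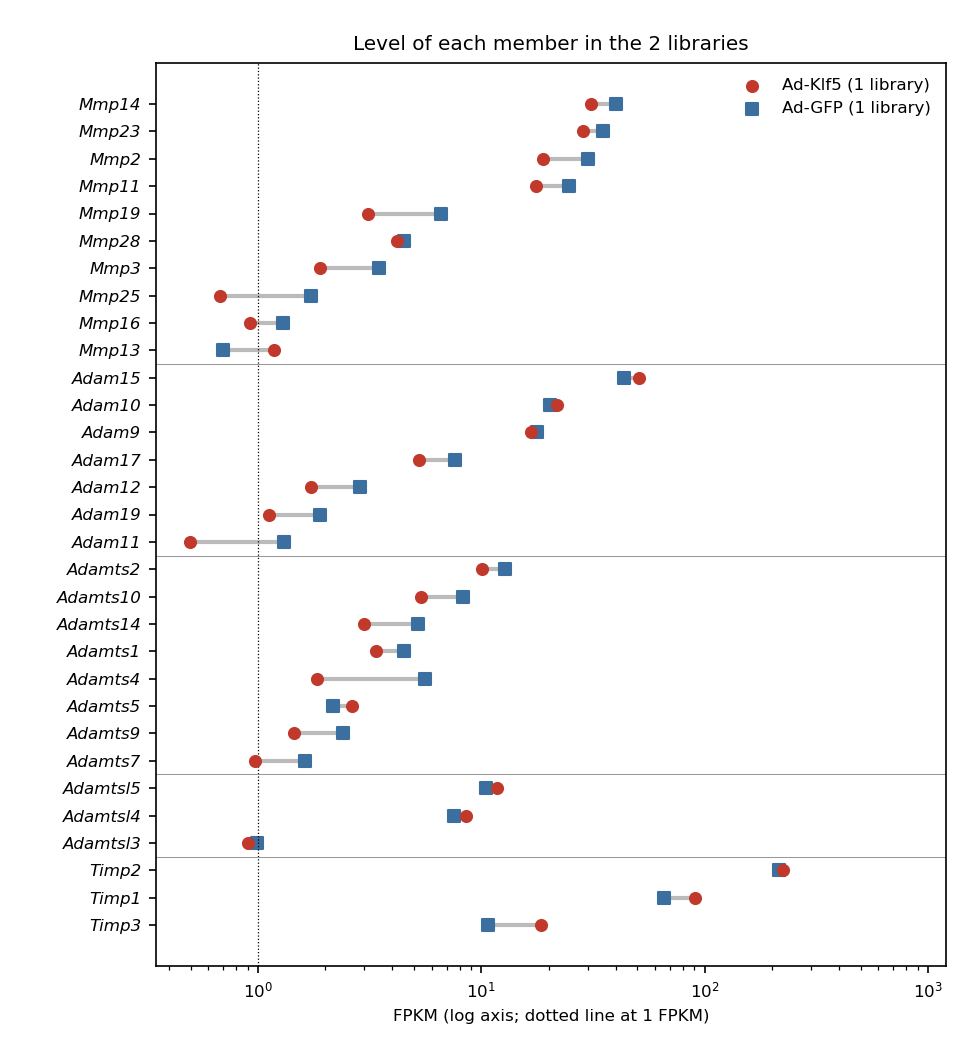
FPKM (log axis) of each of the 31 members in the Ad-Klf5 library (circles) and the Ad-GFP library (squares), ordered by mean level within each family, with a dotted line at 1 FPKM. Timp2 and Timp1 are the most abundant members, and most Mmp and Adamts genes have the Ad-Klf5 circle to the left of the Ad-GFP square.

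Most proteases had a log2 ratio below 0, and the 3 Timp genes had one above 0. Of the 23 proteases (Mmp, Adam and Adamts) measured, 20 had a log2 ratio below 0, beside 52.1% of all genes measured. Their median log2 ratio was -0.45, against -0.02 over all genes measured, and their ratios ran from -1.21 for Adamts4 to 0.21 for Adam15. Of the 20 below 0, Mmp25, Mmp16 and Adamts7 passed the filter only through their Ad-GFP value. The 3 Timp genes had log2 ratios of 0.06, 0.46 and 0.73. The ranges overlap, since Adam10, Adam15 and Adamts5 had larger ratios than Timp2. With no filter on level, 21 of the 25 genes of these 3 families were below 0 and 4 above; they are called proteases by family, and include Adam11, which has no protease activity.

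At a fold of at least 1.5 on the FPKM + 1 scale, 6 of the 28 members were lower in Ad-Klf5, beside 5.49% of all genes measured, and 1 was higher, beside 4.44%. The 6 were Adamts4, Mmp19, Mmp25, Mmp2, Adamts14 and Mmp3, all proteases, and the higher one was Timp3. Of the 6, Mmp25 passed the filter only through its Ad-GFP value. The closest to the limit were Mmp3 inside it, at -0.63, and Adamts10 outside it, at -0.54. At a fold of at least 2, Adamts4 was lower, 1 of 28 beside 0.679% of all genes, and no member was higher, beside 0.975%. With both libraries scaled to a common FPKM sum, 7 members were at least 1.5-fold lower and 1 was higher, beside 8.59% and 2.93% of all genes. The counts at 1.5-fold depend on these settings: with a pseudocount of 5, 1 of 28 members was lower, beside 1.55% of all genes, and where only genes averaging 5 FPKM or more were kept, 1 of 15 members was lower, beside 4.98% of all genes.

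**Figure D2:**
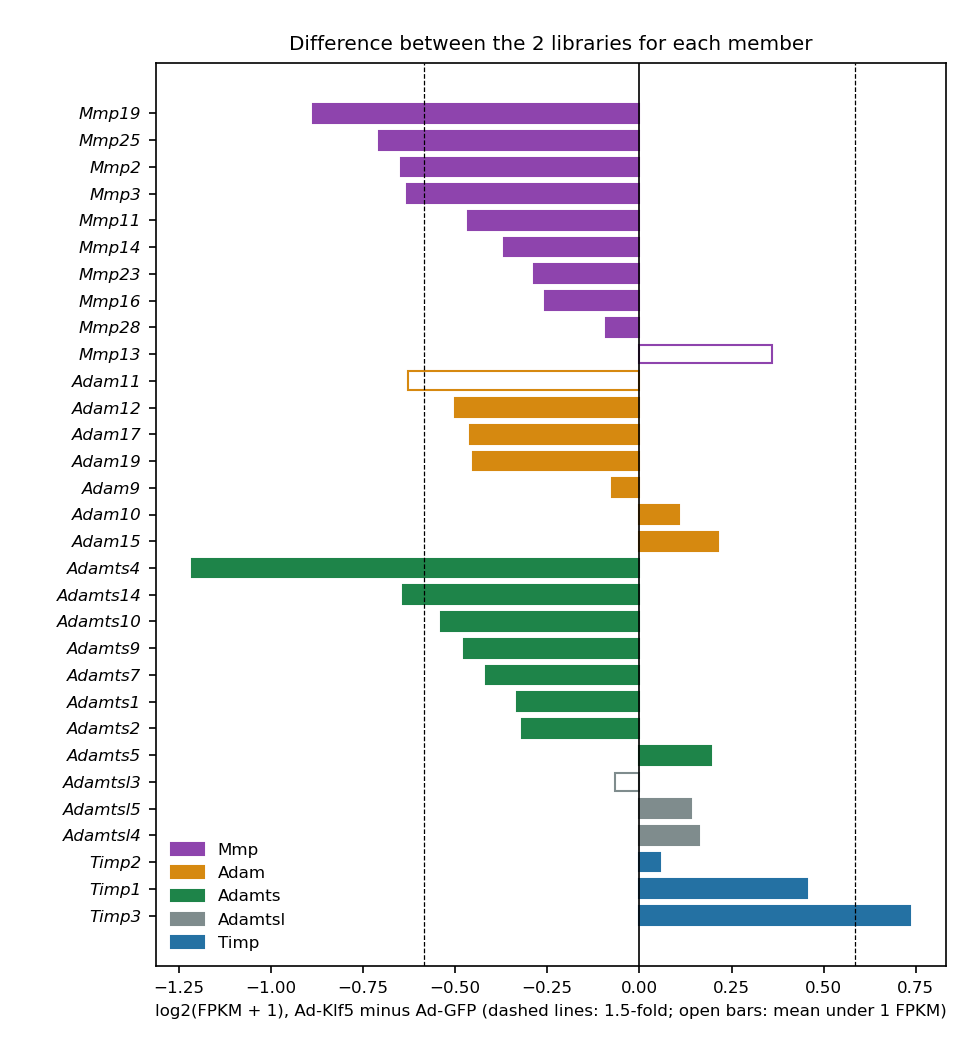
Log2 ratio of FPKM + 1, Ad-Klf5 minus Ad-GFP, for each of the 31 members, coloured by family; dashed lines mark 1.5-fold and open bars are genes averaging under 1 FPKM. Bars of the Mmp and Adamts genes point to the left except those of Mmp13 and Adamts5, and the 3 Timp bars point to the right.

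**Figure D3:**
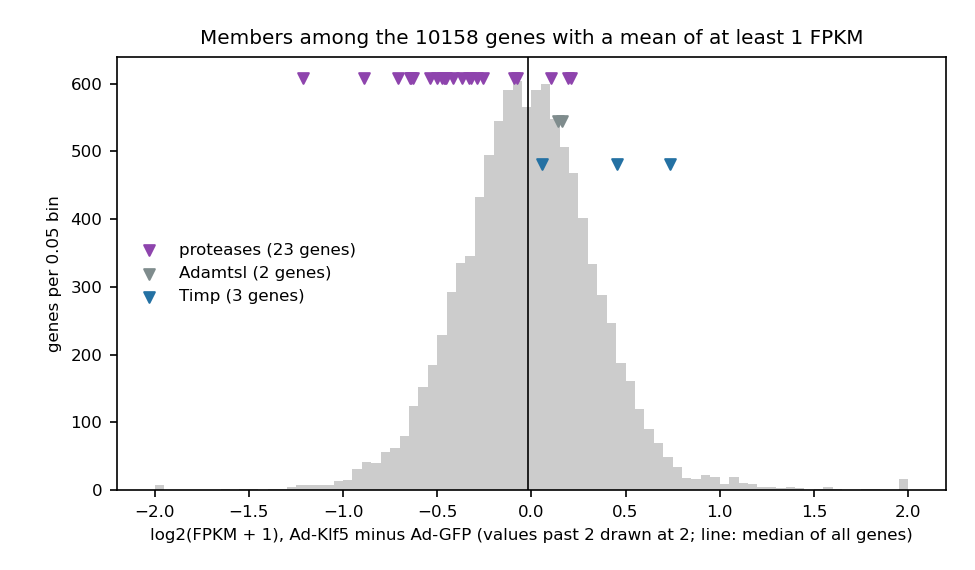
Number of genes per bin of log2 ratio (Ad-Klf5 minus Ad-GFP) for the 10158 genes measured, with triangles at the ratios of the 23 proteases, 2 Adamtsl genes and 3 Timp genes. The protease triangles centre on -0.45, to the left of the line at the median of all genes.

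Among the MMPs, all 9 genes measured had a log2 ratio below 0 (median -0.46), beside 52.1% of all genes measured. At least 1.5-fold lower were 4 of them, beside 5.49% of all genes measured. Mmp25, which is 1 of these 4, and Mmp16 passed the filter only through their Ad-GFP value. Mmp13, the only MMP with a ratio above 0, fell short of the filter. Mmp2, the gelatinase that cuts denatured collagen and basement membrane collagen (GRCm38 chromosome 8, 92827291 to 92853420), was at 18.9 FPKM in Ad-Klf5 and 30.1 FPKM in Ad-GFP, a log2 ratio of -0.65. Mmp14, the membrane-anchored collagenase that activates the Mmp2 proenzyme (chromosome 14, 54431612 to 54445364), was at 31.0 FPKM in Ad-Klf5 and 40.3 FPKM in Ad-GFP (-0.37). Both partners had a ratio below 0, and Mmp14 was under 1.5-fold. Mmp2 stood at percentile 76.5 of the levels of all genes measured, so it is not among the weakly expressed genes.

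Mmp19, a secreted MMP that cuts basement membrane proteins (chromosome 10, 128790910 to 128800824), had the lowest ratio of the MMPs. It was at 3.10 FPKM in Ad-Klf5 and 6.57 FPKM in Ad-GFP, a log2 ratio of -0.89. Mmp3, stromelysin-1, which also activates other MMP proenzymes (chromosome 9, 7445822 to 7455975), was at 1.90 FPKM in Ad-Klf5 and 3.49 FPKM in Ad-GFP (-0.63). The neighbouring gene Mmp13, collagenase-3 (chromosome 9, 7272514 to 7283331), ended 162 kb before Mmp3 and had the opposite sign, at 1.18 FPKM in Ad-Klf5 and 0.698 FPKM in Ad-GFP (0.36). These neighbours share the AP-1 word printed above and differ in direction, but Mmp13 was not measured by the filter.

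Mmp11, stromelysin-3, was at 17.6 FPKM in Ad-Klf5 and 24.6 FPKM in Ad-GFP (-0.46). Mmp23, a membrane protein released by cleavage of its own prodomain, was at 28.5 FPKM in Ad-Klf5 and 34.9 FPKM in Ad-GFP (-0.29). Mmp28, epilysin, was nearly level, at 4.19 FPKM in Ad-Klf5 and 4.52 FPKM in Ad-GFP (-0.09). The membrane-type genes Mmp25 and Mmp16 were close to the floor of the filter. Mmp25 was at 0.678 FPKM in Ad-Klf5 and 1.74 FPKM in Ad-GFP (-0.71), and Mmp16 at 0.920 FPKM in Ad-Klf5 and 1.29 FPKM in Ad-GFP (-0.26). The 5 secreted MMPs measured had a median log2 ratio of -0.63 and the 4 membrane-bound ones of -0.33, with overlapping ranges.

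The ADAM genes divided by level. The 3 most abundant differed little between the libraries. Adam15, a membrane ADAM with an integrin-binding RGD site in the human protein (chromosome 3, 89338542 to 89349996), was at 50.7 FPKM in Ad-Klf5 and 43.6 FPKM in Ad-GFP (log2 ratio 0.21). Adam10, the main sheddase of Notch receptors and N-cadherin (chromosome 9, 70678997 to 70780229), was at 21.9 FPKM in Ad-Klf5 and 20.3 FPKM in Ad-GFP (0.11). Adam9 was at 16.8 FPKM in Ad-Klf5 and 17.7 FPKM in Ad-GFP (-0.08).

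The less abundant ADAM genes all had ratios below 0, and of these Adam11 alone was past 1.5-fold on the FPKM + 1 scale. Adam17, the TNF-alpha converting enzyme that also releases EGF receptor ligands (chromosome 12, 21323509 to 21373632), was at 5.29 FPKM in Ad-Klf5 and 7.66 FPKM in Ad-GFP (-0.46). Adam12, meltrin alpha, was at 1.72 FPKM in Ad-Klf5 and 2.85 FPKM in Ad-GFP (-0.50), and Adam19, meltrin beta, at 1.12 FPKM in Ad-Klf5 and 1.91 FPKM in Ad-GFP (-0.45). Adam11, the member without protease activity, was at 0.495 FPKM in Ad-Klf5 and 1.31 FPKM in Ad-GFP (-0.63), and is one of the genes short of the filter. Of the 6 ADAM genes measured, 4 were below 0 and 2 above, beside 52.1% of all genes measured below 0. The median of the 6 was -0.26, and its sign turned (0.016) where only genes averaging 5 FPKM or more were kept. The sheddases Adam10 and Adam17, which share many substrates, thus stood on different sides of 0.

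Of the 8 ADAMTS genes, 7 had a log2 ratio below 0 (median -0.45), beside 52.1% of all genes measured. At least 1.5-fold lower were 2 of them, beside 5.49% of all genes measured. Adamts7, which is 1 of the 7 below 0, passed the filter only through its Ad-GFP value. Adamts4, aggrecanase-1, which cuts aggrecan and versican (chromosome 1, 171250421 to 171260637), was at 1.83 FPKM in Ad-Klf5 and 5.57 FPKM in Ad-GFP. This is a log2 ratio of -1.21, the lowest of all members and at percentile 0.285 of the ratios of all genes measured. The log2 ratio of Adamts4 was -0.63 with a pseudocount of 5.

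Adamts1 and Adamts5, which also cut proteoglycans, lie 55.1 kb apart on chromosome 16 and stood on different sides of 0. Adamts1 (85793827 to 85803113) was at 3.40 FPKM in Ad-Klf5 and 4.53 FPKM in Ad-GFP (-0.33). Adamts5, aggrecanase-2 (85858170 to 85901125), was at 2.63 FPKM in Ad-Klf5 and 2.17 FPKM in Ad-GFP (0.20), the single ADAMTS gene above 0. Adamts9, another versican-cleaving protease, was at 1.45 FPKM in Ad-Klf5 and 2.41 FPKM in Ad-GFP (-0.47).

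The procollagen N-propeptidases, which remove the amino-terminal propeptide of fibrillar procollagens, both had ratios below 0. Adamts14 was at 2.99 FPKM in Ad-Klf5 and 5.22 FPKM in Ad-GFP (-0.64). Adamts2, the more abundant enzyme, was at 10.1 FPKM in Ad-Klf5 and 12.8 FPKM in Ad-GFP (-0.32), under 1.5-fold. Adamts10, which binds fibrillin-1, was at 5.37 FPKM in Ad-Klf5 and 8.24 FPKM in Ad-GFP (-0.54). Adamts7, which cuts cartilage oligomeric matrix protein and is known for its part in VSMC migration, was at 0.973 FPKM in Ad-Klf5 and 1.63 FPKM in Ad-GFP (-0.42). It overlaps Tbc1d2b on the opposite strand, which had a log2 ratio of -0.54. The methods of the study do not state whether the libraries keep strand. Whether strand was used in the quantification is not given in the sources used here.

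The ADAMTS-like genes encode secreted glycoproteins without a protease domain, and 2 of the 3 had a log2 ratio above 0. Adamtsl5 was at 11.7 FPKM in Ad-Klf5 and 10.6 FPKM in Ad-GFP (0.14). Adamtsl4, which binds fibrillin-1, was at 8.54 FPKM in Ad-Klf5 and 7.53 FPKM in Ad-GFP (0.16). Adamtsl3 was at 0.900 FPKM in Ad-Klf5 and 0.990 FPKM in Ad-GFP (-0.07).

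Timp2 and Timp1 were the most abundant members, while Timp3 stood below several Mmp and Adam genes in level and had the largest ratio of the inhibitors. Timp3, the TIMP that binds to the extracellular matrix and also inhibits ADAM17 and aggrecanases (chromosome 10, 86300372 to 86349506), was at 18.6 FPKM in Ad-Klf5 and 10.8 FPKM in Ad-GFP. This is a log2 ratio of 0.73, at percentile 97.8 of all genes measured, and the single member at least 1.5-fold higher. Timp1, an inducible secreted inhibitor of most MMPs (chromosome X, 20870166 to 20874735), was at 90.3 FPKM in Ad-Klf5 and 65.6 FPKM in Ad-GFP (0.46). Timp2, which inhibits Mmp2 and also takes part with Mmp14 in activating it (chromosome 11, 118301069 to 118355740), was at 225 FPKM in Ad-Klf5 and 216 FPKM in Ad-GFP, a log2 ratio of 0.06 that becomes -0.05 with the libraries scaled to a common sum. Timp1 and Timp3 lie on the opposite strand inside the synapsin genes Syn1 and Syn3; Syn1 was at 0.495 FPKM in Ad-Klf5 and 0.927 FPKM in Ad-GFP, far under the level of Timp1.

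Set as summed levels, the 25 proteases came to 235 FPKM in Ad-Klf5 and 286 FPKM in Ad-GFP, and the 3 Timp genes to 334 FPKM in Ad-Klf5 and 293 FPKM in Ad-GFP. The protease sum was thus 0.703 times the Timp sum in Ad-Klf5 and 0.978 times in Ad-GFP. By family, the Mmp sum was 108 FPKM in Ad-Klf5 and 148 FPKM in Ad-GFP, and the Adamts sum 28.7 FPKM in Ad-Klf5 and 42.6 FPKM in Ad-GFP. The Adam sum was 98.0 FPKM in Ad-Klf5 and 95.4 FPKM in Ad-GFP, so the lower protease sum came from the Mmp and Adamts genes. Timp2 made up 67.4% of the Timp sum in Ad-Klf5 and 73.9% in Ad-GFP. Without Timp2 and the most abundant protease, Adam15, the ratio of the sums was 1.69 in Ad-Klf5 and 3.18 in Ad-GFP. The ratio is one of mRNA levels and does not measure protein or activity.

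**Figure D4:**
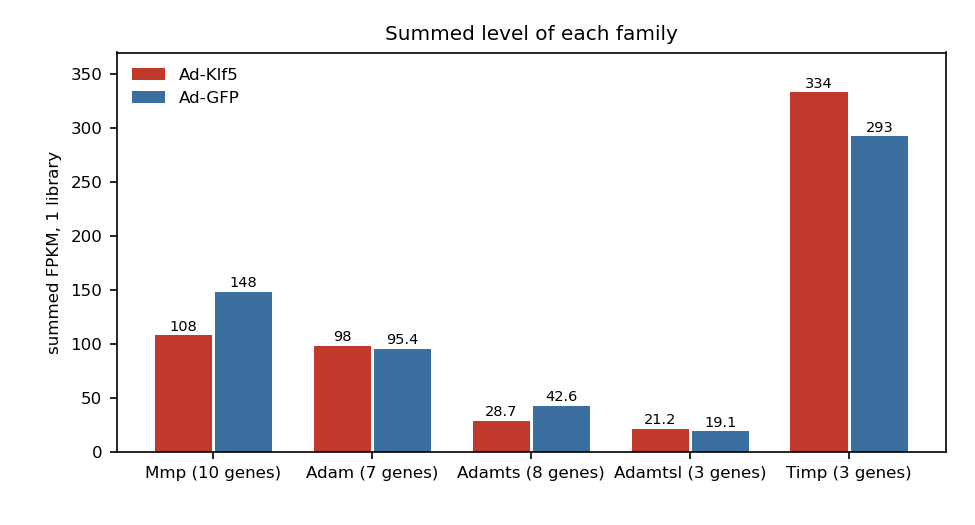
Summed FPKM of each family in the Ad-Klf5 library (left bar) and the Ad-GFP library (right bar), 1 library each and with no error bars. The Mmp bars stand at 108 and 148, the Adamts bars at 28.7 and 42.6 and the Timp bars at 334 and 293.

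Genes that act on or beside these proteases were taken from lists of activators, inhibitors, surface partners and cofactors. Of 5 measured convertases and plasminogen activators, 0 were at least 1.5-fold lower and 1 was higher, beside 5.49% and 4.44% of all genes measured. The median log2 ratio of the 5 was -0.27. Plaur, the urokinase receptor that gathers plasminogen activation at the cell surface, was at 18.5 FPKM in Ad-Klf5 and 9.28 FPKM in Ad-GFP (0.92). Furin, which removes the prodomain of membrane MMPs, ADAMs and ADAMTS proteases, was at 11.3 FPKM in Ad-Klf5 and 13.9 FPKM in Ad-GFP (-0.27). The tissue plasminogen activator Plat was at 40.1 FPKM in Ad-Klf5 and 51.6 FPKM in Ad-GFP (-0.36). The 4 measured genes of the list of other inhibitors and related proteins were all under 1.5-fold, among them Reck, a membrane-anchored MMP inhibitor, at 2.58 FPKM in Ad-Klf5 and 2.86 FPKM in Ad-GFP (-0.11).

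Of 11 clearance and surface partners, 3 were at least 1.5-fold lower and 1 higher, beside 5.49% and 4.44% of all genes measured. Lrp1, the endocytic receptor that removes MMPs, ADAMTS proteases and TIMP complexes from the medium, was at 44.1 FPKM in Ad-Klf5 and 101 FPKM in Ad-GFP (-1.17). The subunits of integrin alpha-v beta-3, a surface anchor for Mmp2, were lower together: Itgav was at 2.20 FPKM in Ad-Klf5 and 4.68 FPKM in Ad-GFP (-0.83), and Itgb3 at 2.32 FPKM in Ad-Klf5 and 4.24 FPKM in Ad-GFP (-0.66). Cav1, the caveolar coat protein, was at 7.73 FPKM in Ad-Klf5 and 2.96 FPKM in Ad-GFP (1.14). Cd44, a docking receptor for MMPs, was just under 1.5-fold on the FPKM + 1 scale, at 14.3 FPKM in Ad-Klf5 and 9.27 FPKM in Ad-GFP (0.58).

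The cofactors of Adam10 and Adam17 had a median log2 ratio of 0.08 in 8 measured genes. At 1.5-fold, 1 was lower and 1 higher, beside 5.49% and 4.44% of all genes measured. Both cofactors past 1.5-fold were TspanC8 tetraspanins, which carry Adam10 to the surface. Tspan5 was at 3.75 FPKM in Ad-Klf5 and 8.04 FPKM in Ad-GFP (-0.93), and Tspan15 at 14.3 FPKM in Ad-Klf5 and 9.01 FPKM in Ad-GFP (0.62). The iRhom genes that escort Adam17, chosen for mention after their values were seen, had log2 ratios of 0.01 (Rhbdf1) and -0.12 (Rhbdf2).

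Genes of the substrates were mostly lower as well. Of 17 measured membrane substrates of ADAM sheddases, 16 had a log2 ratio below 0, beside 52.1% of all genes measured, with a median of -0.33. At 1.5-fold, 3 were lower and 1 higher, beside 5.49% and 4.44% of all genes measured. Notch3, the Notch receptor of smooth muscle, was at 1.92 FPKM in Ad-Klf5 and 5.76 FPKM in Ad-GFP (-1.21). The membrane chemokine Cx3cl1 was at 1.56 FPKM in Ad-Klf5 and 4.30 FPKM in Ad-GFP (-1.05), and the PDGF receptor Pdgfrb at 40.9 FPKM in Ad-Klf5 and 74.7 FPKM in Ad-GFP (-0.85). Hbegf, an EGF receptor ligand released by ADAM17, was the higher gene, at 8.31 FPKM in Ad-Klf5 and 5.19 FPKM in Ad-GFP (0.59).
Of 15 measured matrix substrates, 14 were below 0, beside 52.1% of all genes measured, with a median of -0.44. At least 1.5-fold lower were 6 of them, beside 5.49% of all genes measured. These 6 were the proteoglycans Fmod (-1.62) and Hspg2 (-0.81), fibronectin, and the collagens Col3a1 (-0.92), Col1a2 (-0.79) and Col4a2 (-0.61). Fn1, the fibronectin gene, was at 166 FPKM in Ad-Klf5 and 333 FPKM in Ad-GFP. The proteases and these substrates therefore lay on the same side of 0 for the most part, and the Timp genes on the other.

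**Figure D5:**
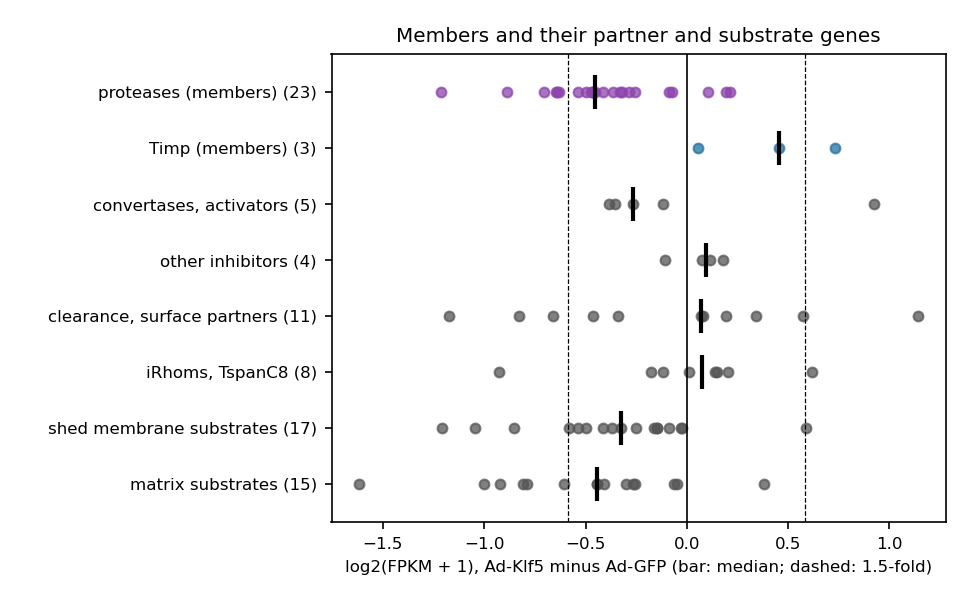
Log2 ratio (Ad-Klf5 minus Ad-GFP) of each gene measured among the 23 proteases, the 3 Timp genes and 6 lists of partner and substrate genes; black bars are medians and dashed lines mark 1.5-fold. The medians of the proteases (-0.45), membrane substrates (-0.33) and matrix substrates (-0.44) lie to the left of 0 and that of the Timp genes (0.46) to the right.

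Other properties of the genes and of the libraries are given here beside these ratios. The proteases measured had a median exon length of 5303 bases, against 4334 bases over the genes measured. The 2368 other genes within the interquartile range of the proteases in both exon length and mean FPKM had a median log2 ratio of -0.07, with 58.0% below 0 and 5.49% at least 1.5-fold lower. For the Timp genes the corresponding 467 genes had a median of 0.02. By mean FPKM alone, 947 other genes within the interquartile range of the Timp genes had a median of 0.08, with 38.8% below 0. The corresponding 5639 genes for the proteases had a median of -0.05, with 55.8% below 0. The libraries also differed in genes of other cell types, and in bulk RNA fewer cells of a type cannot be told apart from less RNA per cell. Of 5 measured mesothelial markers 4 were at least 1.5-fold higher, beside 4.44% of all genes measured. The summed level of the 5 was 127 FPKM in Ad-Klf5 and 24.0 FPKM in Ad-GFP. All 5 measured fibroblast markers were below 0, beside 52.1% of all genes measured. They had a summed level of 620 FPKM in Ad-Klf5 and 794 FPKM in Ad-GFP. Col1a1, Col1a2 and Dcn are in both the fibroblast and the matrix list. Pdgfra was at 4.62 FPKM in Ad-Klf5 and 13.7 FPKM in Ad-GFP. Of the 7 measured smooth muscle markers 3 had a ratio above 0 and 4 below, all under 1.5-fold on the FPKM + 1 scale. Lmod1 had the lowest of these ratios (-0.58), at 2.54 FPKM in Ad-Klf5 and 4.27 FPKM in Ad-GFP. The 7 markers summed to 332 FPKM in Ad-Klf5 and 360 FPKM in Ad-GFP. Acta2, which makes up most of the sum, was at 201 FPKM in Ad-Klf5 and 229 FPKM in Ad-GFP, and Tagln at 14.4 FPKM in Ad-Klf5 and 10.3 FPKM in Ad-GFP. Cnn1 averaged under 1 FPKM. Of the 11 smooth muscle markers listed, 8 were in the deposited table, which has no row named Myh11, Mylk or Myocd. Genes missing from it have no value here. Of the 8 endothelial markers 1 was measured (Egfl7, -0.30), and of the 7 macrophage and leukocyte markers 0 were measured. The part of these properties in the member ratios was not tested.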

How the data were processed

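RNA of 1 library per condition was analysed, assigned by title. The values are FPKM as deposited by the authors. Per the submitters' processing notes the tools were StringTie, STAR 2.5.2b, HISAT2 2.0.5 and cutadapt, in no stated role or order, with the build mm8; the methods of the study instead state HTSeq counting and a human genome. The loci of 29 of the 31 members in the table equal those of GENCODE vM21 (GRCm38). The deposited table also holds log2 group means for groups numbered 1 and 2, which the labels do not tie to a title, and the authors' log2 fold change, fold change (ratio), p-value and q-value columns. None of these was used.

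Rows sharing a symbol were summed, except a row named Mtfr1 that carries the ID of Mtfr1l. Log2 ratios used a pseudocount of 1; medians and counts used genes averaging 1 FPKM or more, and calls used folds of 1.5 and 2 with no test. FPKM hold no depth, so no counting intervals were computed. Every member may be named; genes of the partner lists were named if 1.5-fold apart, otherwise up to 4 per list by size of the ratio, apart from the iRhom genes. The zinc-binding motif of the proteins was not analysed here. Some items are not reported here. Members and lists were chosen with earlier results of these data known. Alternatives were other pseudocounts, filters, scalings, row choices and sums. Of the steps, only the 2-fold call was tested on simulated data, with larger changes placed in genes averaging 5 FPKM or more. The 1.5-fold calls, medians, sums and motif searches were not tested in this way. Calculations were run in Python 3.11.15 (pandas 2.3.3, numpy 2.4.6), with figures from matplotlib 3.10.9.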

Additional observations from a re-analysis of the deposited data

How the results depend on the processing

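With a pseudocount of 0.1, 11 of 28 members were at least 1.5-fold lower, beside 8.76% of all genes, and 3 at least 2-fold lower, beside 1.86%; the Adamts median was -0.65. With a pseudocount of 5, 1 of 28 members was at least 1.5-fold lower (1.55% of all genes), 0 were 2-fold lower (0.187%) and 0 were 1.5-fold higher (1.89%); the medians were -0.19 for the members, -0.24 for the proteases, -0.30 for Mmp, -0.12 for Adam and -0.22 for Adamts. With no filter the Adam median was -0.45. Where only genes averaging 5 FPKM or more were kept, 1 of 15 members was 1.5-fold lower (4.98% of all genes) and 0 were 2-fold lower (0.670%), the median was -0.075 for the members and -0.34 for the proteases, and the Adam median reversed to 0.016. With the libraries scaled to a common sum, the median was 0.35 for Timp and -0.57 for Mmp. Without Adam15 and Timp2, the protease to Timp ratio in Ad-Klf5 was 0.532 times that in Ad-GFP, against 0.719 times with all members. Over the settings run, the protease median stayed between -0.53 and -0.24 and the Timp median between 0.35 and 0.47. Each value was counted once per setting. The remaining 71 summary values and 211 member ratios moved by no more than 0.1 on the log2 scale, or 1.5 times for a count. Another 37 member ratios moved further. The level filters and the row choice could not change any member ratio, so those settings say nothing about it. Centring on the median or trimmed mean of all genes measured moved every ratio by the same small amount. Timp2 was the only member whose ratio changed sign, with the libraries scaled to a common sum (-0.05). The authors' group means and what is left in them without the named libraries were planned and not run, because the groups are only numbered. No paired analysis was possible because each condition has 1 library. The methods of the study state an approximate number of reads per sample, but the FPKM values hold no counts per gene. This limits the genes near 1 FPKM most.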
